A study of Mus musculus with 6 samples.

Results

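The genes described here are 42 genes of the G2 phase and mitosis, chosen by name and found among the 55487 genes of the deposited expression table. They encode the cyclins and kinases that start mitosis, the kinetochore and its checkpoint, mitotic kinesins, spindle and cytokinesis proteins, anaphase regulators and chromosome proteins. All 42 lie on autosomes and passed the filter on low counts, with 232 to 10680 counts in any library. RNA came from bone marrow LSK cells, a fraction defined by Sca-1 and Kit and by the absence of lineage markers, in which haematopoietic stem cells and multipotent progenitors lie. There were 3 libraries from Mc5r-/- mice, called Mc5r-null here, which lack the melanocortin 5 receptor, and 3 from wild-type littermates. The series describes the mice as irradiated, so both genotypes shared that treatment, and gives no dose, time, age or sex in the sources used here. The mutation is named as a knock out with no cell-type-specific driver, and how many mice gave each library is not stated, so the p-values reflect library-to-library spread only, and that spread may be technical.

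A cell that enters mitosis accumulates cyclins A and B, which activate CDK1, and then needs Aurora and Polo-like kinases, motor proteins and the kinetochore to attach and align its chromosomes. The spindle checkpoint holds the anaphase-promoting complex in check until every kinetochore is attached, after which cyclin B and securin are destroyed and the cell divides. Most of these genes are transcribed mainly late in the cell cycle, so in a mixed population their RNA largely follows the share of cells in G2 and mitosis. Long-term stem cells in adult marrow are mostly quiescent and hold little of it, while multipotent and myeloid progenitors divide more.

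Mc5r itself had 0, 0 and 0.0721 CPM (counts relative to a library total scaled by the trimmed mean of M values, TMM) in the Mc5r-null libraries, against 12.0, 10.4 and 13.1 CPM in wild type. Total counts were 13983016 to 14076870 in Mc5r-null and 14903723 to 14953169 in wild-type libraries. The gate gene Kit had 259 ± 4.37 CPM in Mc5r-null and 238 ± 2.64 CPM in wild type, and the Sca-1 gene Ly6a 67.4 ± 9.71 and 58.6 ± 10.5 CPM (SD, n = 3 each). The Xist RNA of the inactive X chromosome had 0 to 0.144 CPM in Mc5r-null and 77.3 to 84.8 CPM in wild-type libraries, while Y-linked genes were read in both genotypes. Eif2s3y had 57.3 ± 5.30 CPM in Mc5r-null and 58.8 ± 1.84 CPM in wild type, Uty 13.2 ± 0.951 and 11.9 ± 1.11 CPM, Ddx3y 84.5 ± 2.47 and 59.0 ± 13.8 CPM, and Kdm5d 23.5 ± 1.21 and 20.1 ± 0.918 CPM (SD, n = 3 each), of which Kdm5d alone was called (higher, edgeR adjusted p = 0.0374). Wild-type libraries thus held Xist beside Y-linked transcripts, while Mc5r-null libraries held Y-linked transcripts almost without Xist. The sex makeup of the libraries and the genotype cannot be told apart.

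Genes of G2 and mitosis were modestly lower in Mc5r-null LSK cells, and not uniformly so. Of the 42, 17 were lower and 2 higher in edgeR's quasi-likelihood fit of 15257 genes (Benjamini-Hochberg adjusted p under 0.05), and 23 did not pass. The 17 are 40.5% of the members, where 16.1% of all genes tested were lower, and the 2 are 4.76%, where 16.8% of all genes were higher. Within the members' own range of mean level, which held 8408 genes, 22.4% were lower and 17.1% higher. These shares are also the background for the counts of each role class below, and each class holds few genes. The median log2 fold change was -0.11 over the members and -0.00474 over all genes tested. The changes were small: the strongest decrease, of the kinesin gene Kif20b, was 1.31-fold, 5 members fell by more than 1.2-fold, and the strongest increase, of the spindle gene Nusap1, was 1.08-fold. In 20 members every Mc5r-null library lay below every wild-type library, and in 5 every one lay above, against 24.1% and 24.2% of all genes. With DESeq2, 10 members were lower and 0 higher, where 1446 of all genes were lower and 1656 higher. At an unadjusted p under 0.05 that tool gave 15 lower and 1 higher members and edgeR 20 lower and 3 higher. The share of all genes at that unadjusted threshold was not computed, so these counts have no background. The 9 calls that DESeq2 did not make were those of Kif11, Birc5, Nuf2, Bub1, Cdca3, Ube2c, Mki67, Nusap1 and Ncapd2, whose adjusted p with that tool lay between 0.0536 and 0.289. In bulk RNA, fewer dividing cells and less of each transcript per dividing cell cannot be told apart.

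**Figure D1:**
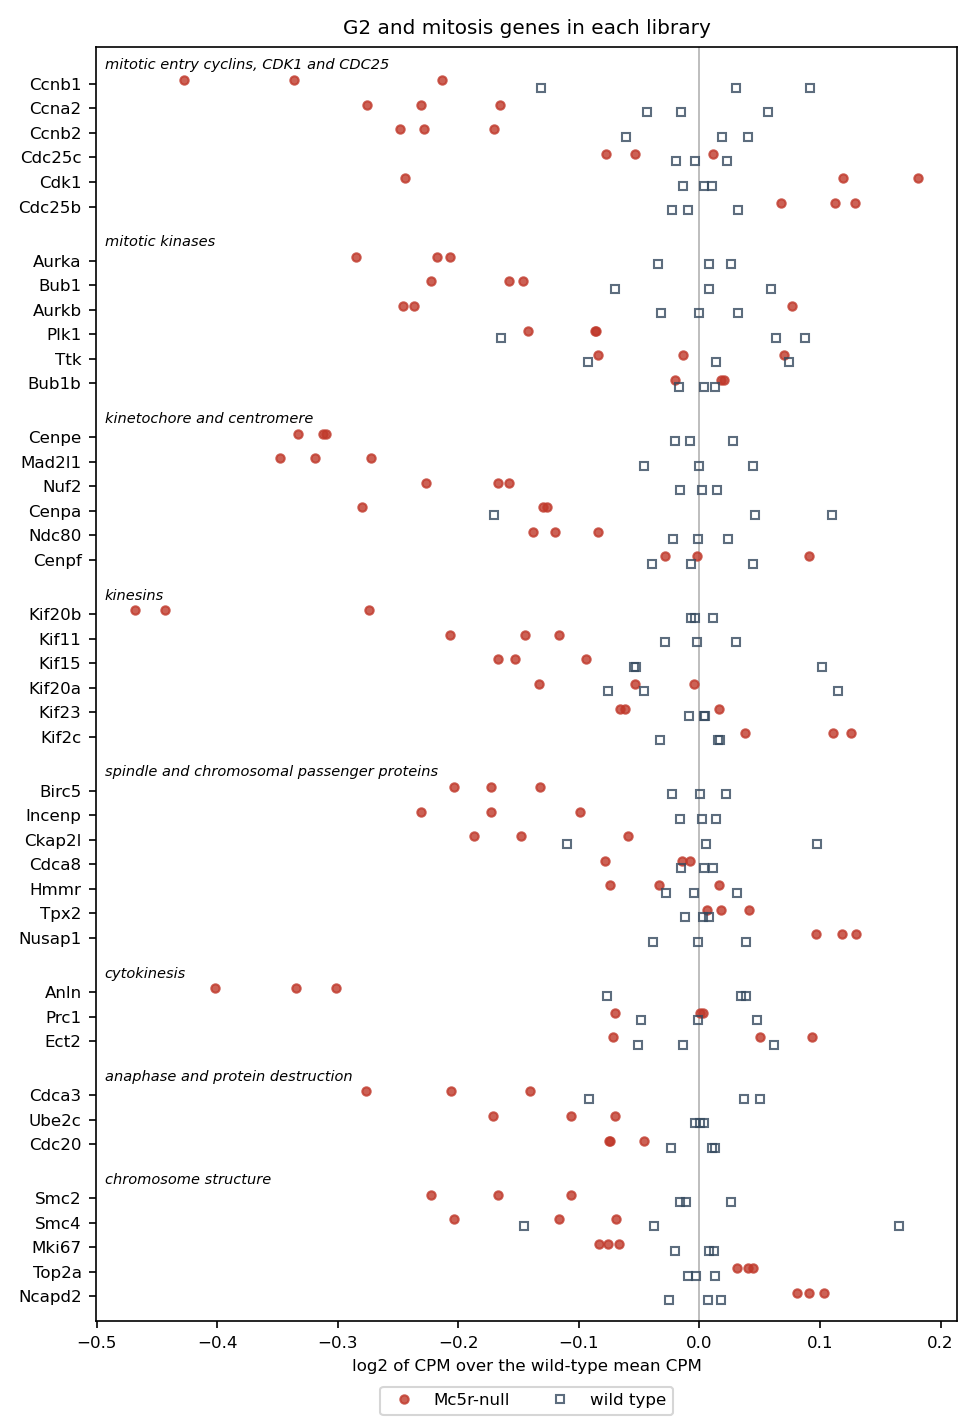
TMM-scaled CPM of each member in each library, as the log2 ratio to the wild-type mean of that gene (horizontal axis), with genes grouped by role. Red dots are the 3 Mc5r-null and open squares the 3 wild-type libraries; the Mc5r-null dots of Kif20b, Anln, Cenpe and Mad2l1 lie left of all their wild-type squares, while those of Top2a, Ncapd2 and Nusap1 lie to the right.

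The promoters of these genes are printed because the members share a sequence feature that their choice did not use. Late cell cycle genes are known to carry the cell cycle genes homology region (CHR), bound by the MuvB complexes that repress them in resting cells and, with B-MYB and FOXM1, activate them later, and CCAAT boxes, bound by NF-Y. Windows of 300 bases, from 250 bases before to 50 bases after the start site, were found in the RefSeq promoters of GRCm38.p6 for 35 of the 42 genes, as 37 windows. Some of these start sites lie well inside the gene locus of the expression table, as for Kif2c and Cdca8. The CHR letters TTTGAA or TTCGAA, searched on both strands, were in the windows of 29 of these 35 genes (82.9%), against 21.7% of 27025 genes with a window, 43.8% of 96 other mitosis genes and 24.0% of 25 S phase genes. CCAAT, also on both strands, was in 26 of 35 (74.3%), against 41.1% of all genes with a window, 57.3% of the other mitosis genes and 64.0% of the S phase genes, and both motifs stood in the same window for 24 of 35 (68.6%), against 8.61% of all genes, 30.2% of the other mitosis genes and 5 of 25 S phase genes. With 1 window a gene, that of the most upstream start site, 29 of 42 CHR matches lay within 50 bases of the start site, with a median position of -1, while CCAAT matches had a median position of -71. The CHR letters were in 10 of the 15 promoters of members that fell and in all 18 of members that did not pass. Only 15 of the 17 members that fell had a window, and a link between holding the letters and falling was not tested. A match is a description of letters and not of binding. The windows below are those of Kif20b, Mad2l1 and Cenpe, which are among the 5 strongest decreases, of Ccnb2 and Aurka, which also fell, of Top2a, which had the most CHR matches and did not pass, and of Ncapd2, which rose. Capitals mark CHR and CCAAT letters on either strand.
Kif20b, chr19:34922108-34922407, plus strand: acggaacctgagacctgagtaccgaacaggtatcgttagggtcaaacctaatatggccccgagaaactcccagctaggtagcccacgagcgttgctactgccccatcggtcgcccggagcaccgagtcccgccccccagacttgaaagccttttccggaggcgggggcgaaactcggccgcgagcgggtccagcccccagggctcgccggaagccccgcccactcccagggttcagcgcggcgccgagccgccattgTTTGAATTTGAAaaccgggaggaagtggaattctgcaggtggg
Mad2l1, chr6:66534971-66535270, plus strand: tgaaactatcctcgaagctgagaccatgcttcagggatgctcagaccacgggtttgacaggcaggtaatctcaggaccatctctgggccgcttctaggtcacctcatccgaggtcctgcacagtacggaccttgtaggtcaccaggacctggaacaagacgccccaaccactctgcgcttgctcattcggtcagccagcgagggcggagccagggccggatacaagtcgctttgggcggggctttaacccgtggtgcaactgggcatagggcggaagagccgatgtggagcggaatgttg
Cenpe, chr3:135212313-135212612, plus strand: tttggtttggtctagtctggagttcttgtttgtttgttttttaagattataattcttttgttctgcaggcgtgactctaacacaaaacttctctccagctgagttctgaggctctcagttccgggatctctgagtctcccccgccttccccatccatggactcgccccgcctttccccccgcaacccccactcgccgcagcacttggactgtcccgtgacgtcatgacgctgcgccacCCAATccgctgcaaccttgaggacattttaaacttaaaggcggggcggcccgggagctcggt
Ccnb2, chr9:70421505-70421804, minus strand: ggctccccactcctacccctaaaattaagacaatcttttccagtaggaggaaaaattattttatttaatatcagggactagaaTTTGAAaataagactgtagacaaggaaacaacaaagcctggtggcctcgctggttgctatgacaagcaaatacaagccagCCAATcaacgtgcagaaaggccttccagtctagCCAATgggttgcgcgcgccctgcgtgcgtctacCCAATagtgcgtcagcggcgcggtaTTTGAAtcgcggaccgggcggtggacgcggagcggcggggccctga
Aurka, chr2:172370521-172370820, minus strand: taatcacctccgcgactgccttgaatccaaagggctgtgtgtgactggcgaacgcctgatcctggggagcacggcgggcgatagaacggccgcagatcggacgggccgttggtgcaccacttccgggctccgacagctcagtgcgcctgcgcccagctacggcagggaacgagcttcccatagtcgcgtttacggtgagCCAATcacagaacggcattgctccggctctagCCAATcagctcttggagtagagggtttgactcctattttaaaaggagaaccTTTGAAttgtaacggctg
Top2a, chr11:99024140-99024439, minus strand: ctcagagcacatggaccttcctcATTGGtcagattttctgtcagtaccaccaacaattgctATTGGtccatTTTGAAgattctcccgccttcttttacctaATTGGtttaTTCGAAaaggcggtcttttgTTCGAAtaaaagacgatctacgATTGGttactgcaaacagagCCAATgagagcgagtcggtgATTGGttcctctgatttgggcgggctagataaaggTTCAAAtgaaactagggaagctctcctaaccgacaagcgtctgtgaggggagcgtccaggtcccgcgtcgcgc
Ncapd2, chr6:125191537-125191836, minus strand: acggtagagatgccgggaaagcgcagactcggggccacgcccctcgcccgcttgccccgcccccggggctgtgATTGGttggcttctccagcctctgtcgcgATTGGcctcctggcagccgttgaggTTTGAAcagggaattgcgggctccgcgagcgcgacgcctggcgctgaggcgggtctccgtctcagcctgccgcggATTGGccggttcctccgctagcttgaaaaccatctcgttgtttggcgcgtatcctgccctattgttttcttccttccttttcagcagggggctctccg
The Kif20b window held 2 CHR matches side by side just after the start site and no CCAAT, and those of Ccnb2 and Aurka a CHR at positions 5 and 33 downstream of 3 and 2 CCAAT boxes. The Top2a window held 4 CHR and 6 CCAAT matches. Cenpe had 1 CCAAT and no CHR letters in its window, and Mad2l1 neither, while both fell by more than Ccnb2. The Mad2l1 window ends at base 66535270, before its locus in the expression table starts at 66535390. Sequence around that start was therefore not searched, and motifs there would have been missed.

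**Figure D2:**
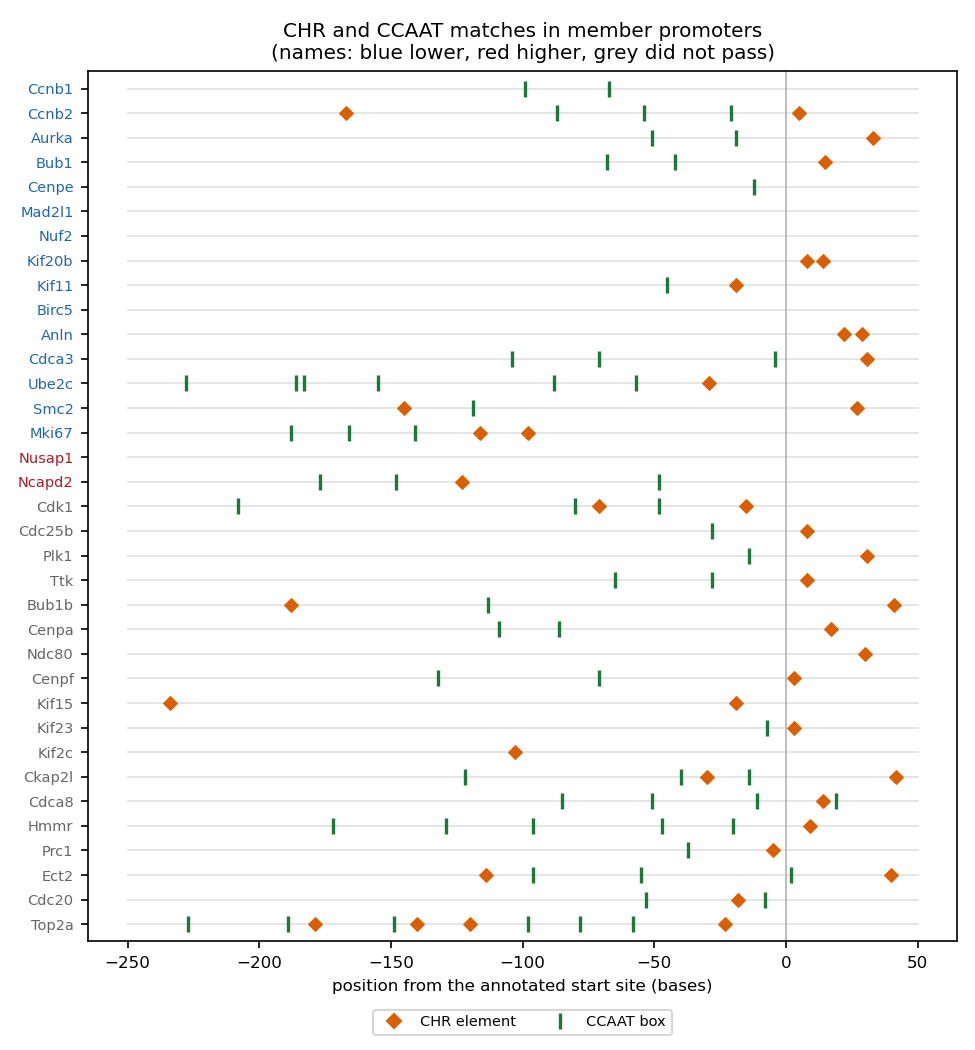
Positions of CHR letters (orange diamonds) and CCAAT boxes (green bars) in the promoter windows of 35 members (1 window a gene), in bases from the annotated start site (horizontal axis). Blue names are lower, red names higher and grey names not past the test in Mc5r-null; most diamonds sit close to the start site in blue and grey names alike, with CCAAT boxes upstream.

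Among the genes that start mitosis, the cyclin genes fell while Cdk1, Cdc25b and Cdc25c did not pass. The related phosphatase gene Cdc25a, which is not among the 42 members, was lower (1.21-fold, edgeR adjusted p = 0.000533). A split between cyclin and phosphatase genes was not tested. Of the 6 members in this class, 3 were lower and 0 higher, with a median log2 fold change of -0.13. Ccnb1, which encodes the main mitotic cyclin, had 31.3, 34.0 and 29.3 CPM in Mc5r-null libraries, against 40.3, 36.0 and 42.1 CPM in wild type. The groups did not overlap, and Ccnb1 fell 1.25-fold (log2 fold change -0.32 ± 0.078 SE, edgeR adjusted p = 0.0142). Reads of Ccnb1 can be shared with its pseudogene Ccnb1-ps, which had 22.1 ± 2.10 CPM in Mc5r-null and 25.7 ± 0.200 CPM in wild type (SD, n = 3 each), and the sum of the pair was also lower (log2 fold change -0.28, edgeR adjusted p = 0.0119). Ccnb2 had 91.8, 88.2 and 87.0 CPM in Mc5r-null libraries, against 99.1, 106 and 105 CPM in wild type, without overlap (1.16-fold lower, edgeR adjusted p = 0.00369). Ccna2, the cyclin of S phase and early mitosis, had 154, 167 and 159 CPM in Mc5r-null and 181, 185 and 194 CPM in wild-type libraries (1.17-fold lower, edgeR adjusted p = 0.0025). It shares 510 exonic bases with the opposite-strand gene Exosc9, which had 22.9% as many counts. The sources used here do not say whether reads were counted by strand. Cdk1, the mitotic kinase that these cyclins activate, had 86.4, 82.7 and 64.3 CPM in Mc5r-null libraries, against 75.4, 76.3 and 76.7 CPM in wild type. Replicate 3 of Mc5r-null thus lay below, and replicates 1 and 2 above, every wild-type library; the fitted log2 fold change was 0.03 (95% interval -0.25 to 0.31, edgeR adjusted p = 0.865) and, without replicate 3, 0.15 (edgeR adjusted p = 0.0303). The phosphatase genes Cdc25b and Cdc25c, whose products remove the inhibitory phosphates from CDK1, had log2 fold changes of 0.10 and -0.04 and did not pass.

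The mitotic kinases divided in the same way. Of 6 genes, 2 were lower and 0 higher, with a median log2 fold change of -0.12. Aurka, the Aurora kinase of the centrosome and spindle poles, had 49.4, 52.1 and 51.8 CPM in Mc5r-null libraries, against 61.3, 60.5 and 58.7 CPM in wild type (1.18-fold lower, edgeR adjusted p = 0.00365). Bub1, a kinase of the spindle checkpoint, had 82.8, 83.4 and 79.1 CPM in Mc5r-null and 87.9, 92.8 and 96.2 CPM in wild-type libraries (1.13-fold lower, edgeR adjusted p = 0.0149; 0.0520 without Mc5r-null replicate 3). Neither gene's groups overlapped. Bub1b, which encodes the checkpoint protein BUBR1, had 173, 169 and 173 CPM in Mc5r-null libraries, against 171, 169 and 173 CPM in wild type, and its 95% interval of -0.05 to 0.06 on the log2 scale was among the narrowest. Ttk, the checkpoint kinase MPS1, had a log2 fold change of -0.01 (95% interval -0.15 to 0.14). For Plk1, the Polo-like kinase, and Aurkb, the kinase of the chromosomal passenger complex, a single library set the outcome. Plk1 had 87.1, 83.8 and 87.1 CPM in Mc5r-null and 82.5, 98.3 and 96.6 CPM in wild-type libraries, and passed only without wild-type replicate 1 (log2 fold change -0.18, edgeR adjusted p = 0.0126, against -0.10 and 0.267 with all libraries). Aurkb had 79.9, 99.9 and 80.4 CPM in Mc5r-null and 92.6, 94.7 and 96.8 CPM in wild-type libraries, and passed only without Mc5r-null replicate 2 (log2 fold change -0.24, edgeR adjusted p = 0.00382, against -0.13 and 0.339).

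Kinetochore and centromere genes had the lowest median of the role classes, -0.18 on the log2 scale, with 3 of 6 lower and 0 higher. The classes were not tested against each other. Cenpe, a kinesin that tethers kinetochores to microtubules, had 80.2, 81.5 and 81.3 CPM in Mc5r-null libraries, against 100.4, 99.6 and 103 CPM in wild type, and fell 1.25-fold with the smallest adjusted p of the members (log2 fold change -0.32 ± 0.031 SE, edgeR adjusted p = 0.000138). Mad2l1, which encodes the checkpoint inhibitor MAD2, had 79.2, 76.7 and 75.2 CPM in Mc5r-null and 98.7, 92.7 and 95.7 CPM in wild-type libraries (1.24-fold lower, edgeR adjusted p = 0.000449). Both genes had narrow groups that stood well apart. The NDC80 complex, the kinetochore's microtubule coupler, was represented by Nuf2 and Ndc80. Nuf2 had 51.6, 53.7 and 54.1 CPM in Mc5r-null and 60.4, 59.7 and 60.9 CPM in wild-type libraries (1.14-fold lower, edgeR adjusted p = 0.00891). Ndc80 had 45.3 ± 0.865 CPM in Mc5r-null and 49.1 ± 0.778 CPM in wild type (SD, n = 3 each), without overlap, and missed the threshold (edgeR adjusted p = 0.0778) except when scaled by library totals alone (0.0315). Cenpa, the histone variant that marks centromeres, had 65.0, 72.2 and 72.4 CPM in Mc5r-null and 85.2, 70.2 and 81.5 CPM in wild-type libraries and passed only without wild-type replicate 2 (log2 fold change -0.26, edgeR adjusted p = 0.0159). Cenpf, a large kinetochore protein gene, had 73.5 ± 3.24 CPM in Mc5r-null and 72.5 ± 2.13 CPM in wild type (SD, n = 3 each).

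Of the 6 genes in the kinesin class, which does not include Cenpe, 2 were lower and 0 higher, with a median log2 fold change of -0.10. Kif20b, a kinesin of late mitosis and cytokinesis, lies at chr19:34922361-34975745 (GRCm38). It had 40.0, 39.4 and 45.1 CPM in Mc5r-null libraries, against 54.2, 54.9 and 54.3 CPM in wild type, and fell 1.31-fold (log2 fold change -0.39 ± 0.059 SE, edgeR adjusted p = 0.00131). It was the only member whose change exceeded 0.36, the median absolute log2 fold change of all called genes. Kif11, the motor that pushes the spindle poles apart, had 182, 171 and 178 CPM in Mc5r-null and 201, 197 and 193 CPM in wild-type libraries (1.11-fold lower, edgeR adjusted p = 0.00558). Kif15, which can share the work of Kif11, had 103 ± 2.81 CPM in Mc5r-null and 113 ± 7.17 CPM in wild type (SD, n = 3 each) and missed the threshold (edgeR adjusted p = 0.0577). Scaling by library totals alone (edgeR adjusted p = 0.0257) or leaving out the filter on low counts (0.0407) brought it past. Kif23 and Kif20a, motors of the central spindle, had log2 fold changes of -0.04 and -0.06, and Kif2c, a microtubule-depolymerising kinesin, had 0.09 (95% interval -0.02 to 0.20). Kif20a shares 1271 exonic bases with the opposite-strand gene Cdc23, which had 73.1% as many counts, so its level is uncertain. The sister motors Kif20a and Kif20b differed in outcome, a difference that was not itself tested.

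Spindle and chromosomal passenger genes included a gene of each direction. Of 7, 2 were lower (28.6%) and 1 was higher (14.3%), with a median log2 fold change of -0.033. These values lay near those of all genes at the members' level, 22.4% lower, 17.1% higher and a median of -0.027. Birc5, which encodes the passenger protein survivin, had 87.4, 83.2 and 85.0 CPM in Mc5r-null libraries, against 97.3, 95.9 and 94.3 CPM in wild type (1.12-fold lower, edgeR adjusted p = 0.00576). Incenp, the scaffold of the same complex, had 177, 194 and 185 CPM in Mc5r-null and 208, 210.0 and 206 CPM in wild-type libraries (1.12-fold lower, edgeR adjusted p = 0.00662). Cdca8, the passenger protein borealin, had 132 ± 3.51 CPM in Mc5r-null and 135 ± 1.31 CPM in wild type (SD, n = 3 each) and did not pass. Nusap1, a spindle microtubule protein gene, had 102, 104 and 105 CPM in Mc5r-null and 98.3, 95.7 and 93.2 CPM in wild-type libraries (1.08-fold higher, edgeR adjusted p = 0.0286). Its call was lost with DESeq2, with library totals alone and without Mc5r-null replicate 2 or 3 or wild-type replicate 2 or 3 (edgeR adjusted p of 0.0715, 0.0774, 0.0771 and 0.1004, in that order). It shares 172 exonic bases with the opposite-strand gene Oip5, which had 11.5% as many counts. Tpx2, which activates Aurora A on the spindle, had 165 ± 2.05 CPM in Mc5r-null and 162 ± 1.16 CPM in wild type (SD, n = 3 each), and the spindle genes Hmmr and Ckap2l had log2 fold changes of -0.03 and -0.13 and did not pass. Ckap2l passed without wild-type replicate 2 (log2 fold change -0.18, edgeR adjusted p = 0.0426).

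**Figure D3:**
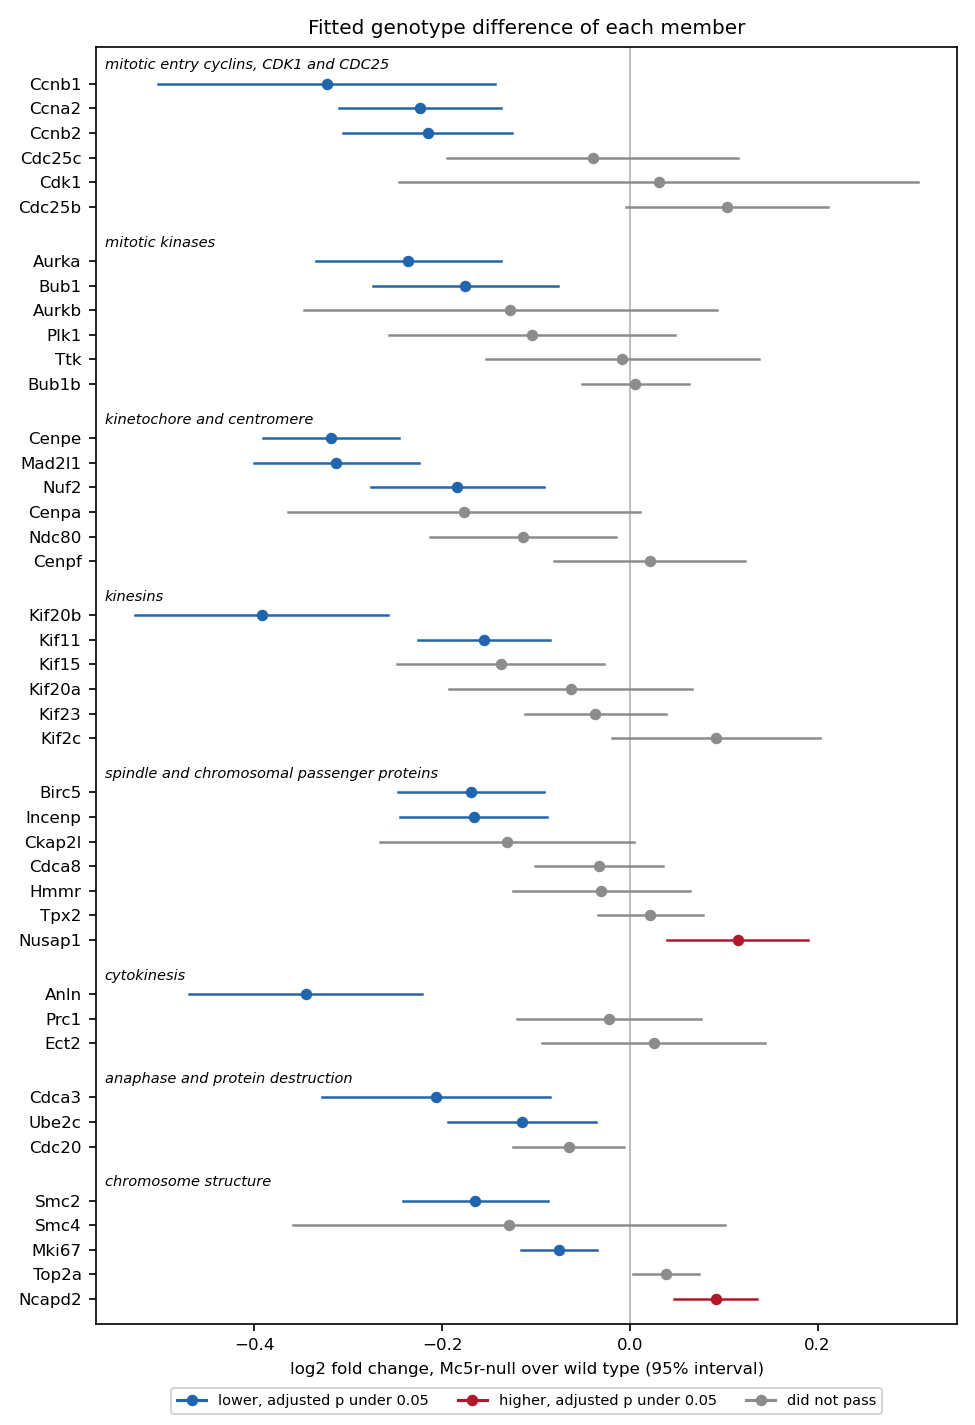
Fitted log2 fold change of each member, Mc5r-null over wild type (horizontal axis), with its 95% interval, by role. Blue is lower and red higher at an adjusted p under 0.05, and grey did not pass; each role holds blue members, while Ncapd2 and Nusap1 are the red ones, and the wide grey intervals are those of Cdk1, Aurkb and Smc4.

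Of the 3 cytokinesis genes, Anln alone changed. Anln encodes anillin, a scaffold of the contractile ring, at chr9:22332012-22389188 (GRCm38). It had 38.9, 39.8 and 37.1 CPM in Mc5r-null libraries, against 46.5, 50.3 and 50.4 CPM in wild type, and fell 1.27-fold (log2 fold change -0.35 ± 0.054 SE, edgeR adjusted p = 0.00168). Ect2, the exchange factor that activates RhoA at the cell equator, had 78.1, 80.4 and 71.7 CPM in Mc5r-null and 72.8, 74.7 and 78.7 CPM in wild-type libraries. Prc1, which bundles the microtubules of the central spindle, had 65.8, 65.6 and 62.5 CPM in Mc5r-null and 67.8, 65.6 and 63.5 CPM in wild-type libraries. For both genes the groups overlapped, and the 95% intervals of the log2 fold change were -0.09 to 0.14 and -0.12 to 0.08. Prc1 shares 911 exonic bases with the opposite-strand gene Rccd1, which had 17.1% as many counts.

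Genes of anaphase and protein destruction lay below wild type in every Mc5r-null library, with 2 of 3 called lower, 0 higher and a median log2 fold change of -0.12. Ube2c, the ubiquitin-conjugating enzyme of the anaphase-promoting complex, had 100.3, 103 and 95.9 CPM in Mc5r-null libraries and 108 CPM in each wild-type library (1.08-fold lower, edgeR adjusted p = 0.0337). Its call was lost with DESeq2 (adjusted p = 0.263) and without any 1 library but Mc5r-null replicate 2 (edgeR adjusted p between 0.0655 and 0.0978). Cdca3, an adaptor that promotes the destruction of the CDK1 inhibitor WEE1, had 61.4, 67.4 and 64.4 CPM in Mc5r-null and 69.7, 76.3 and 77.0 CPM in wild-type libraries (1.15-fold lower, edgeR adjusted p = 0.0184). That call was lost with DESeq2 (adjusted p = 0.0749) and without Mc5r-null replicate 1 or wild-type replicate 2 or 3 (edgeR adjusted p = 0.0563, 0.0583 and 0.0571). Cdc20, the activator of the complex at anaphase, had 143, 143 and 146 CPM in Mc5r-null and 152, 148 and 152 CPM in wild-type libraries and missed the threshold (1.05-fold lower, edgeR adjusted p = 0.0893), which it met when scaled by library totals alone (0.0211). Its exons share 53 bases with the opposite-strand gene Elovl1, which had 27.5% as many counts.

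Genes of chromosome structure differed in direction. Of 5, 2 were lower and 1 was higher, with a median log2 fold change of -0.08. Mki67, which encodes the proliferation marker Ki-67, a coat of mitotic chromosomes, had 501, 507 and 503 CPM in Mc5r-null libraries, against 523, 534 and 535 CPM in wild type, a 1.05-fold decrease (edgeR adjusted p = 0.0123). With DESeq2 it did not pass (adjusted p = 0.289). Top2a, the topoisomerase that disentangles sister chromatids, had 723, 721 and 716 CPM in Mc5r-null and 696, 707 and 699.6 CPM in wild-type libraries, all higher in Mc5r-null but by 1.03-fold, and did not pass (edgeR adjusted p = 0.0904). Of the condensin genes, Smc2 had 151, 163 and 156 CPM in Mc5r-null and 174, 179 and 174 CPM in wild-type libraries (1.12-fold lower, edgeR adjusted p = 0.00639). Its partner Smc4 had 253, 278 and 269 CPM in Mc5r-null and 263, 327 and 284 CPM in wild-type libraries and did not pass (edgeR adjusted p = 0.343). Ncapd2, a subunit of condensin I, had 452, 459.7 and 456 CPM in Mc5r-null and 430.0, 433 and 421 CPM in wild-type libraries and rose 1.07-fold (edgeR adjusted p = 0.00738, DESeq2 adjusted p = 0.150). Subunits of the same complex therefore included a gene that fell and a gene that rose.

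Per length, as the authors' FPKM (fragments per kilobase of transcript, relative to the library total), members spanned 2.55 to 68.3 FPKM in wild type. The highest levels were of Ccnb2 (57.5 ± 1.56 FPKM in Mc5r-null and 68.3 ± 2.56 in wild type), Cdc20 (61.8 ± 0.913 and 66.2 ± 0.954) and Top2a (66.3 ± 0.207 and 66.1 ± 0.548), followed by Mki67 (48.1 ± 0.242 and 51.9 ± 0.691) and Ncapd2 (50.6 ± 0.358 and 48.6 ± 0.699; SD, n = 3 each). The wild-type values of Ccnb2, Cdc20 and Top2a did not differ beyond their spread. In Mc5r-null the order of these genes was Top2a, Cdc20 and Ccnb2, and over all members no rank moved by more than 3 places. The lowest was Cdc25c, with 2.42 ± 0.079 FPKM in Mc5r-null and 2.55 ± 0.0345 in wild type. The 5 members that fell by more than 1.2-fold had wild-type levels between 4.86 and 10.8 FPKM, while all 4 members above 50 FPKM differed by less than that. FPKM values carry no scaling beyond the library totals, and depend on the gene length the authors used.

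**Figure D4:**
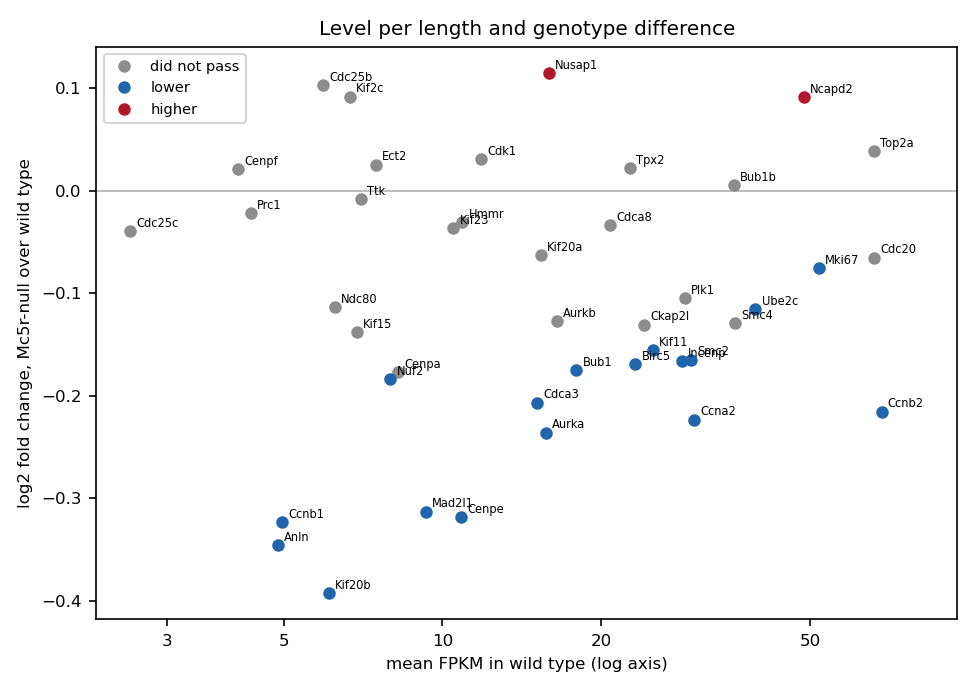
Fitted log2 fold change of each member, Mc5r-null over wild type (vertical axis), against its mean FPKM in wild type (horizontal log axis). Blue is lower, red higher and grey did not pass; the lowest points, Kif20b, Anln, Ccnb1, Cenpe and Mad2l1, lie between 4.86 and 10.8 FPKM.

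Libraries of a genotype agreed more closely for some members than for others. In 9 of the 42 members the 3 Mc5r-null counts varied beyond counting noise (Pearson chi-square at 0.05), and likewise in 9 for wild type, or 21.4% each, against 19.6% and 19.7% of all genes tested. Members with such spread were found among called genes, such as Kif20b and Ccna2, as well as uncalled ones. The widest were Smc4 in wild type, Cdk1 and Aurkb in Mc5r-null, and Plk1 and Cenpa in wild type. The library farthest out was Mc5r-null replicate 3 for Cdk1, Mc5r-null replicate 2 for Aurkb, wild-type replicate 1 for Plk1 and wild-type replicate 2 for Cenpa and Smc4. The members summed to 5268, 5363 and 5281 CPM in Mc5r-null libraries, against 5532, 5617 and 5593 CPM in wild type.

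Beyond these genes, 111 others of mitosis, listed by function, had 32 lower (28.8%) and 7 higher (6.31%), with a median log2 fold change of -0.11. All genes tested had 16.1% lower and 16.8% higher, and those at the members' level 22.4% and 17.1%, so the share of lower genes was close to that background in some of the lists that follow. Ube2s, which extends ubiquitin chains on the anaphase-promoting complex after Ube2c starts them, had 33.3, 34.8 and 37.1 CPM in Mc5r-null libraries, against 62.4, 57.2 and 64.4 CPM in wild type, a 1.75-fold decrease (edgeR adjusted p = 3.04e-05). It fell by more than any of the members. Of 19 genes of that complex and its regulators, 6 were lower and 1 higher: the APC/C inhibitor gene Fbxo5 (1.16-fold) and the subunit gene Anapc1 (1.08-fold) fell, and the subunit gene Anapc7 rose 1.15-fold. Of 11 other regulators of mitotic entry, 5 were lower and 0 higher, among them the phosphatase gene Cdc25a (1.21-fold), the CDK1-inhibiting kinase gene Wee1 (41.4 CPM in Mc5r-null and 49.9 CPM in wild type) and the CDK subunit genes Cks1b (1.12-fold) and Cks2 (1.27-fold). Of 29 other kinetochore genes, 7 were lower (24.1%) and 0 higher, including Cenpc1 (1.21-fold), the X-linked Cenpi (1.23-fold), Kntc1 (1.10-fold) and Zw10 (1.11-fold).

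Of 16 other condensin and cohesin genes, 4 were lower (25.0%) and 1 higher. The condensin gene Ncapg (1.19-fold), the cohesin gene Rad21 (1.10-fold) and the shugoshin gene Sgo1 (1.19-fold) fell, and the X-linked cohesin gene Smc1a rose 1.10-fold. Of 7 other mitotic kinesins, 1 was lower and 2 were higher, with the X-linked Kif4 1.13-fold lower, Kif18b 1.17-fold higher and Kif22 1.10-fold higher. Of 11 centrosome and spindle pole genes, 4 were lower and 2 higher: the centriole gene Stil (1.31-fold) and Cep192 (1.15-fold) fell, and the spindle pole gene Numa1, with 464 ± 20.9 CPM in Mc5r-null and 365 ± 5.17 CPM in wild type (SD, n = 3 each), and Ckap2 (1.14-fold) rose. Of 18 cell cycle transcription regulators, 5 were lower and 1 higher. Mybl2, which encodes the B-MYB partner of MuvB, had 99.7, 99.9 and 92.6 CPM in Mc5r-null and 116, 114 and 119.9 CPM in wild-type libraries (log2 fold change -0.26, edgeR adjusted p = 0.00144), and the repressor gene E2f8 (1.39-fold) and the retinoblastoma family genes Rb1 (1.18-fold) and Rbl1 (1.09-fold) also fell, while Rbl2 of the same family rose 1.09-fold. Foxm1 had 70.0, 77.2 and 39.9 CPM in Mc5r-null and 79.9, 81.3 and 77.9 CPM in wild-type libraries; Mc5r-null replicate 3 lay far below the rest, and the gene did not pass (edgeR adjusted p = 0.390), nor without that library (log2 fold change -0.11, edgeR adjusted p = 0.147). Without 1 or another library the calls of Anapc1, Fbxo5, Cenpi, Kntc1, Zw10, Kif4, Kif22, Sgo1, Rbl1 and Rbl2 were lost, 10 of the 32 named here from these lists and the S phase list. DESeq2 also did not call these 10, nor Cenpc1, Ckap2 and Cks1b, so that 13 of the 32 lost a call in some alternative.

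The share called lower was larger among S phase genes. Of 32, 20 were lower (62.5%) and 0 higher, with a median log2 fold change of -0.17. Among G2 and mitosis genes these were 40.5% lower and -0.11, and the lists were not tested against each other. At an unadjusted edgeR p under 0.05, 22 of the 32 S phase genes were lower and 0 higher, a threshold whose share over all genes was not computed. Those with the smallest p were Rrm2, a subunit gene of ribonucleotide reductase (1.43-fold lower), the cyclin E gene Ccne2 (1.82-fold), Mcm4 of the replicative helicase (1.13-fold) and Cdc6, which loads it (1.43-fold; edgeR adjusted p of at most 0.000326).

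**Figure D5:**
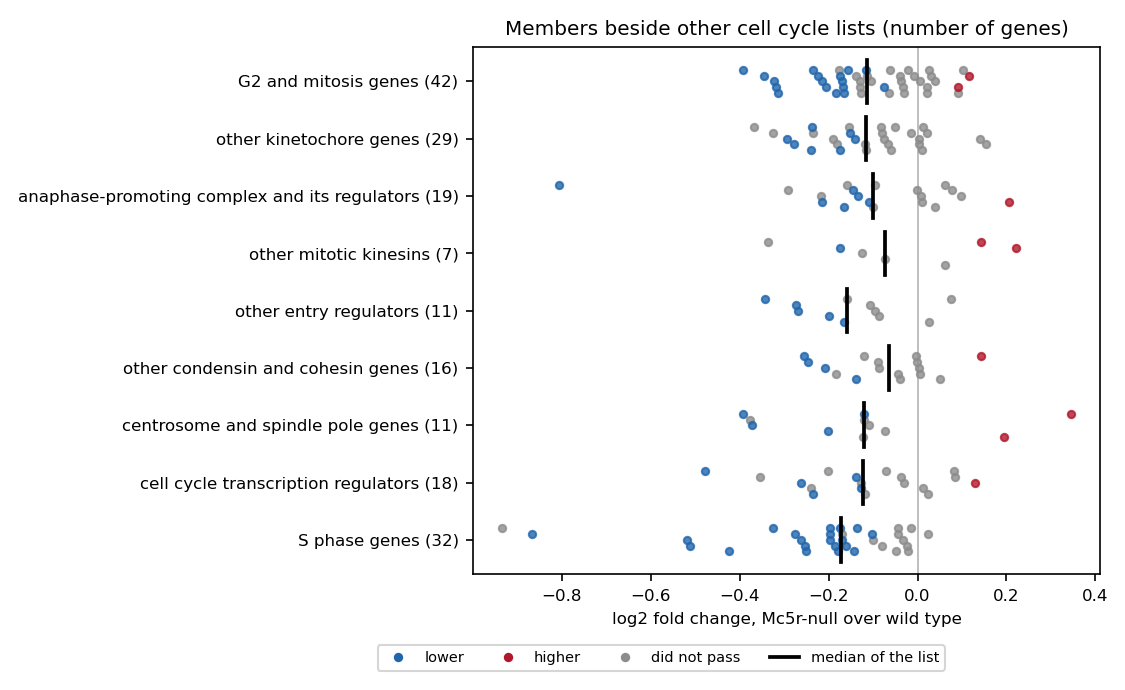
Fitted log2 fold change of each gene, Mc5r-null over wild type (horizontal axis), for the G2 and mitosis genes and 8 other cell cycle lists, with the number of genes in parentheses. Dots are genes coloured by call and black bars are list medians; every median lies left of 0, from -0.06 for the other condensin and cohesin genes to -0.17 for the S phase genes.

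Cell type markers also differed between genotypes, with some lists lower, as the G2 and mitosis genes were, and others higher. Except for the T and NK cell markers, the summed levels of these lists differed by more than the strongest change of a single member, 1.31-fold for Kif20b. Myeloid progenitor markers were 9 of 10 lower and 0 higher, summing to 9829 to 10217 CPM in Mc5r-null and 15146 to 16162 CPM in wild-type libraries. Mast cell and basophil markers were 5 of 6 lower and 0 higher, at 190.2 to 248 CPM in Mc5r-null and 384 to 419 CPM in wild type. Markers of long-term stem cells were 8 of 10 higher and 0 lower, at 300.2 to 303 CPM in Mc5r-null and 179 to 218 CPM in wild type. Erythroid markers were 9 of 10 higher and 0 lower, at 176 to 177 CPM in Mc5r-null and 28.0 to 30.1 CPM in wild type. Plasma and B cell markers, which an LSK gate is meant to leave out, were 8 of 10 higher and 2 lower, at 37368 to 40108 CPM in Mc5r-null and 11537 to 11625 CPM in wild type. Of 7 T and NK cell markers 4 were tested, with Cd3e higher and Nkg7 lower, and the 7 summed to 214 to 223 CPM in Mc5r-null and 270.2 to 273 CPM in wild type. No marker was at 0 in all libraries. The part of these cells in the difference of the G2 and mitosis genes was not tested. With the immunoglobulin and haemoglobin genes removed before scaling, which changes the scaling but leaves the other RNA of those cells in the libraries, 17 members were lower and 2 higher.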

How the data were processed

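Poly-A RNA of LSK cells was sequenced as paired-end stranded libraries, per the labels' protocols, 3 from Mc5r-null and 3 from wild-type mice. The authors deposited whole-number counts per gene, not normalized, and FPKM values beside them. The submitters' processing notes name CASAVA 1.8, HISAT2, StringTie and edgeR and GRCm38, with no roles; the counting program and its use of strand are not given in the sources used here. All 42 loci equalled those of GENCODE mouse release M21.

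The counts were fitted with edgeR 4.0.16 (R 4.3.3): filterByExpr (minimum count 10, total 15), TMM scaling, and the robust quasi-likelihood F-test over 15257 genes, with Benjamini-Hochberg adjustment and calls under 0.05. CPM values divide counts by TMM-scaled library totals, SE is the fold change over the root of F, and exon overlaps and promoters were read with Python 3.11.15. The fit was also run on simulated counts whose spread followed mean level only, without single outlying libraries. No result here rests on that run. Alternatives were RLE, upper-quartile and total-only scaling, DESeq2 1.42.0, limma-voom (limma 3.58.1), other filters and thresholds, removal of immunoglobulin and haemoglobin genes, a replicate block and each library left out. No replicate pair was identical.

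Members, role classes and lists were chosen with earlier results of these data known. Per-library values are given by rule for called members and, in a class with at most 1 called, up to 2 others by FPKM; in each other role, up to 4 called genes by p are named, with up to 3 examples of a marker list. Cdk1, Plk1, Aurkb, Bub1b, Cenpa, Cdc20, Top2a, Smc4, Rbl2, Foxm1 and the sex-linked genes were given per-library or named values outside that rule, after their values were seen.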

Additional observations from a re-analysis of the deposited data

How the results depend on the processing

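Over the alternatives to scaling, test, filter, composition, block and library choice, with the threshold kept, 10 of the 17 members called lower passed in every one: Ccna2, Ccnb1, Ccnb2, Aurka, Mad2l1, Cenpe, Kif20b, Incenp, Anln and Smc2. With DESeq2, 10 members were lower and 0 higher, and 1446 of all genes were lower and 1656 higher. At an adjusted p under 0.01, 12 members were lower and 1 was higher, and 1444 of all genes were lower and 1552 higher. With library totals alone, 20 members were lower and 1 higher, with a median log2 fold change of -0.15, while all genes shifted too, with 3026 lower and 2208 higher, against 2456 and 2567, and a median of -0.04. With the replicate number as a block, 16 members were lower and 1 higher, and Ube2c and Nusap1 lost their calls. The labels give no pairing, and same-numbered libraries did not deviate together (correlations 0.00255, -0.0408 and -0.0240). Such correlations cannot exclude a shared preparation, since much of the spread between libraries is counting noise. Leaving out each library in turn gave 15 to 18 lower and 1 to 2 higher members, a median of -0.12 to -0.10, and 1986 to 2094 lower and 2080 to 2124 higher genes over all. Across 631 repeats of single members, 25 lost and 9 gained a call, in 17 members, and no call changed direction. Summing Ccnb1 with its pseudogene was chosen after seeing the data. The changes of 1.05 to 1.15-fold rest on 3 libraries a genotype and close replicates, and DESeq2 kept 10 of 19 calls.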
